A study of Rattus norvegicus with 4 samples.

Results

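The genes described here encode the protein that the peptide NAP comes from, a protein family with members that NAP is known to bind, and the neuropeptide system that regulates the parent protein. They were chosen by name, as Adnp, Adnp2, Adcyap1, Adcyap1r1, Vipr1, Vipr2, Mapre1, Mapre2 and Mapre3, and all 9 were on the array among 14217 named genes. Each gene was read from its brightest probe set, meaning the one with the highest mean over the 4 arrays, and all 4 probe sets of Adnp are given. The arrays held RNA of the CA3 area of the hippocampus of Sprague-Dawley rats, removed 24 h after an injection into the hippocampus. One array came from rats given KA together with NAP (KA+NAP), one from rats given kainic acid alone (KA), one from rats given NAP alone, and one from rats given PBS, the vehicle. Kainic acid is an agonist of kainate-type glutamate receptors that overexcites and kills CA3 pyramidal neurons, and the study asked whether NAP protects against it. The number of animals behind each array and their age are not given in the labels.

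ADNP (activity-dependent neuroprotective protein) is a zinc finger and homeodomain protein that works in chromatin complexes, and it was first found as a protein induced by vasoactive intestinal peptide (VIP). NAP is a short stretch of ADNP. It binds members of the family of end-binding (EB) proteins, which sit on the growing plus ends of microtubules and recruit other proteins there. PACAP, the product of Adcyap1, is a neuropeptide related to VIP. It acts through PAC1, the product of Adcyap1r1, and through VPAC1 and VPAC2, the products of Vipr1 and Vipr2, which also bind VIP and raise cyclic AMP.

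Intensities are MAS5 signals on a linear scale. With 1 array per group no value has a replicate error and no difference was tested, so a difference of 2-fold or more is only a fixed rule of size. Differences are given on the log2(intensity + 10) scale, which understates those of dim genes, and folds are taken on the same scale. 8 of the 9 genes had a mean intensity above 62.75, the median over probe sets, and they are set beside the 9489 genes that passed this filter. Vipr2 did not pass. For scale, the central 95% of the 9489 genes lay between −0.99 and 1.37 in KA minus PBS, between −0.98 and 1.38 in KA+NAP minus NAP, between −0.62 and 0.85 in KA+NAP minus KA, and between −0.53 and 0.70 in NAP minus PBS. In bulk tissue, fewer cells of a type and less RNA per cell cannot be told apart.

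Markers of the labelled tissue were present, since all 6 CA3 pyramidal and all 6 neuronal markers passed the filter, as did 4 of 4 CA1 and 2 of 3 dentate granule cell markers. The summed intensity of the CA3 markers was 2240 with KA+NAP and 2621 with KA, against 4113 with NAP and 4265 with PBS. That of the neuronal markers was 17036 with KA+NAP and 17005 with KA, against 22077 with NAP and 22611 with PBS. The sum of 7 astrocyte markers was 28225 with KA+NAP and 26092 with KA, against 32232 with NAP and 30698 with PBS. The 4 reactive astrocyte markers summed to 9906 with KA+NAP and 7325 with KA, against 2510 with NAP and 1165 with PBS. Among markers of the neighbouring regions, those of CA1 did not follow KA. The 4 CA1 markers summed to 1964 with KA+NAP and 552 with KA, against 1250 with NAP and 2337 with PBS, a ratio of 1.57 in KA+NAP over NAP and 0.236 in KA over PBS. The 3 dentate granule cell markers summed to 1981 with KA+NAP and 2679 with KA, against 3414 with NAP and 2700 with PBS. For this sum both KA arrays were the lowest, but the KA and PBS arrays were nearly level. No marker of these 6 lists was at 0 on any array. The beta-actin controls, a measure of RNA integrity, had 3′ over 5′ ratios of 15.5 with KA+NAP, 11.4 with KA, 7.92 with NAP and 14.1 with PBS. Those of GAPDH were 1.56, 1.31, 1.40 and 1.45 in the same order. Neither separated the arrays by KA. The beta-actin ratio was highest with KA+NAP and lowest with NAP, so it was unequal within KA+NAP minus NAP. The part of RNA integrity in the differences was not tested.

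In KA minus PBS, 1 of the 8 genes past the filter, Adcyap1r1, was at least 2-fold lower, where 2.39% of all genes were. None was at least 2-fold higher, where 4.91% of all genes were. In KA+NAP minus NAP, which shares no array with the first difference, 2 of the 8 (Adcyap1r1 and Adcyap1) were at least 2-fold lower, against 2.41% of all genes, and none was 2-fold higher, against 5.66%. Both KA arrays lay below both arrays without KA for 4 of the 8 genes, Adcyap1, Adcyap1r1, Vipr1 and Mapre3, where 28.7% of all genes did. Both KA arrays lay above for 2 genes, Adnp and Mapre1, where 32.3% of all genes did. These counts rest on the brightest probe sets, and in the second probe set of Adnp both KA arrays lay below. The median difference of the 8 genes was −0.16 in KA minus PBS, against 0.02 over all genes, and −0.42 in KA+NAP minus NAP, against 0.03.

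**Figure D1:**
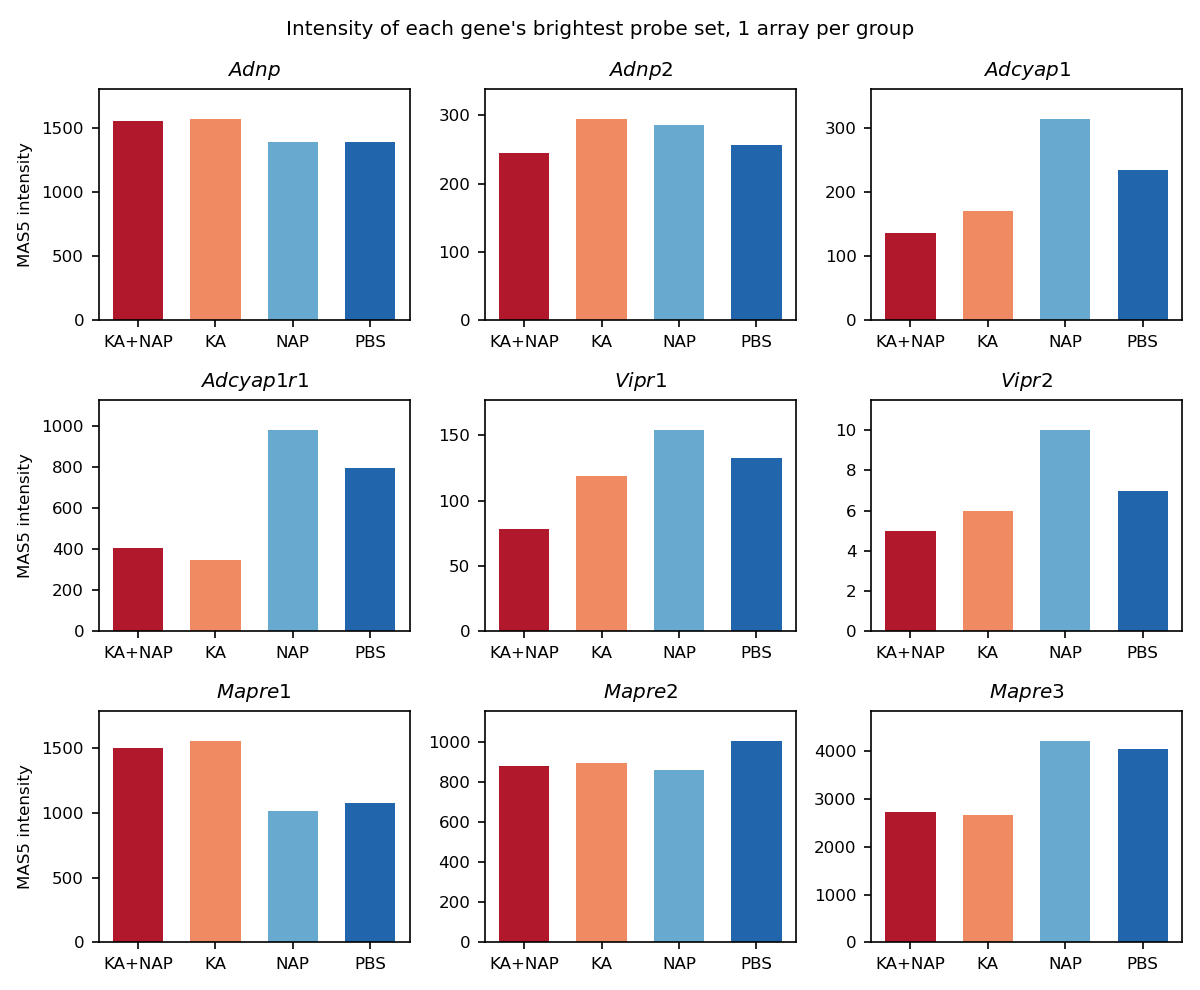
MAS5 intensity (linear, each panel on its own scale from 0) of the brightest probe set of the 9 genes on the KA+NAP, KA, NAP and PBS arrays, 1 bar per array. Adcyap1r1 stands at 407 and 346 on the KA+NAP and KA arrays and at 981 and 795 on the NAP and PBS arrays, Mapre1 runs the other way, and Vipr2 does not exceed 10.

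The promoters of a receptor and ligand pair that lay lower with KA, and of 2 EB genes that lay on opposite sides, are shown so that the sequence near their annotated starts can be compared. They run from 250 bases before to 50 bases after the gene start, 5′ to 3′ on the strand of the gene, from RefSeq on the GRCr8 build. All 9 genes had an entry. Capitals mark the cyclic AMP response element (CRE) half-site TGACG and the AP-1 motif TGANTCA on either strand.
Adcyap1, chr9:120556424-120556723, minus strand: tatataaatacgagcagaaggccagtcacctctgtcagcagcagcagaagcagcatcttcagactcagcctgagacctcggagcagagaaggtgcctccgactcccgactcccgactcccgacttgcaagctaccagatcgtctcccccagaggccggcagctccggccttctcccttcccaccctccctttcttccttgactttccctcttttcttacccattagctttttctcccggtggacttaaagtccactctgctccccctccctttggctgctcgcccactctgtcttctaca
Adcyap1r1, chr4:85923921-85924220, plus strand: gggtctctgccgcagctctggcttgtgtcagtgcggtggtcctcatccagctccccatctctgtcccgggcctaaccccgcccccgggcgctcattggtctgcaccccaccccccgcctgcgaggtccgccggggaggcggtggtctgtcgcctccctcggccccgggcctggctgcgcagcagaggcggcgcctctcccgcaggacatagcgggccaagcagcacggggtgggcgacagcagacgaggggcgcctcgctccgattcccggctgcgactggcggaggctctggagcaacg
Mapre1, chr3:162678820-162679119, plus strand: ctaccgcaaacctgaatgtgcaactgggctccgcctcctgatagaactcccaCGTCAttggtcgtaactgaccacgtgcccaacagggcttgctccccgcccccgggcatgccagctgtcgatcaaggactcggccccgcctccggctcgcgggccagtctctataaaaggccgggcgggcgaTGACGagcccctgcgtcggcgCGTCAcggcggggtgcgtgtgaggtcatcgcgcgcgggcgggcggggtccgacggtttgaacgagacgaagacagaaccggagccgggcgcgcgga
Mapre3, chr6:31244854-31245153, minus strand: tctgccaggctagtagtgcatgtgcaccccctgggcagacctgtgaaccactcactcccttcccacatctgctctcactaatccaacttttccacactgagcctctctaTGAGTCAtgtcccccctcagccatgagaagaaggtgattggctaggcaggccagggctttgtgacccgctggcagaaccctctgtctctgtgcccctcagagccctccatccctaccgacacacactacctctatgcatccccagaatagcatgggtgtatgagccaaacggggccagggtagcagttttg

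The Mapre1 promoter held 3 matches to the CRE half-site and the Mapre3 promoter held 1 match to the AP-1 motif. The windows of Adcyap1 and Adcyap1r1 held neither. The half-site was in 4 of the 9 promoters, with 1 match in Vipr1, 2 in Mapre2 and 2 in Adnp2 besides those of Mapre1. In the brightest probe sets, both KA arrays lay above both others for Mapre1 and below for Vipr1. For Mapre2 and Adnp2 they overlapped. A link between the motif and the KA differences was not tested. Of 33469 RefSeq promoters of this length, 21.2% held TGACG and 7.33% held TGANTCA. The full CRE, TGACGTCA, which contains the half-site on both strands, was in 1.83% of promoters and, of the 9, only in that of Adnp2. These are matches of letters and no binding was measured.

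The PACAP receptor gene had the lowest value of the 9 in each KA difference. Adcyap1r1 encodes PAC1, a class B receptor with high preference for PACAP, found on hippocampal neurons and astrocytes. Its intensity was 407 with KA+NAP and 346 with KA, against 981 with NAP and 795 with PBS. Both arrays with KA were below both arrays without it. The log2 difference was −1.18 in KA minus PBS, a ratio of 0.442, and −1.25 in KA+NAP minus NAP, a ratio of 0.421. These were ranks 129 and 104 from the lowest of 9489 genes. The summed intensity of the CA3 markers had ratios of 0.615 and 0.545 in the same pairs of arrays, that of the neuronal markers 0.752 and 0.772, and that of the astrocyte markers 0.850 and 0.876. Single astrocyte genes spread widely around that sum. In KA minus PBS and KA+NAP minus NAP, the connexin gene Gjb6 differed by −2.78 and −2.38, the glycolytic enzyme gene Aldoc by −1.07 and −0.89, and the filament gene Gfap by 0.50 and 0.28. The summed reactive astrocyte markers had ratios of 6.29 and 3.95. The part of these cell types in the Adcyap1r1 difference was not tested.

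The other 3 probe sets of Adcyap1r1 had mean intensities of 25.5 or less and did not pass the filter. The brightest of them, 1368729_a_at, read 17 with KA+NAP and 14 with KA, against 33 with NAP and 38 with PBS. 1387302_at read 1 and 2 with KA+NAP and KA, against 24 and 8 with NAP and PBS. 1368730_a_at did not exceed 4 on any array. In KA minus PBS, 1368729_a_at differed by −1 and 1387302_at by −0.58, and in KA+NAP minus NAP by −0.67 and −1.63, so each reached 2-fold in 1 of the pairs at intensities where the pseudocount weighs heavily. When all 4 probe sets were averaged on the log2 scale, including 1368730_a_at, the differences were −0.63 and −0.83.

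The ligand gene was also lowest on the 2 KA arrays, but its difference was of unequal size in the 2 pairs. Adcyap1 encodes the PACAP precursor. Its intensity was 136 with KA+NAP and 171 with KA, against 314 with NAP and 235 with PBS. The log2 difference was −1.15 in KA+NAP minus NAP, rank 135 from the lowest, and −0.44 in KA minus PBS, rank 1462. With a pseudocount of 50 the first was −0.97, just short of 2-fold. The summed dentate granule cell markers were also unequal in the 2 pairs, with ratios of 0.580 in KA+NAP over NAP and 0.992 in KA over PBS. The 2 of them past the filter had medians of −0.76 and −0.08, while Dsp, below the filter, differed by −0.36 and −0.54. The inequality was not particular to them. The summed choroid plexus and ependyma markers had ratios of 0.592 and 1.10, although 1 of the 3 past the filter was higher in the first pair. The part of these cell types in the Adcyap1 difference was not tested.

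A second, dimmer probe set of Adcyap1 (1394908_at), below the filter, read 33 with KA+NAP and 51 with KA, against 78 with NAP and 37 with PBS. Its differences were −1.03 in KA+NAP minus NAP and 0.38 in KA minus PBS, so both probe sets were lower in the first pair and they disagreed in sign in the second. In both probe sets the NAP array was the highest.

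The VPAC receptor genes were dim. Vipr1, which encodes VPAC1, read 78 with KA+NAP and 119 with KA, against 154 with NAP and 133 with PBS. The KA+NAP array was the lowest and the KA array was close to the PBS array. The log2 difference was −0.90 in KA+NAP minus NAP and −0.15 in KA minus PBS, ranks 306 and 3248 from the lowest. The summed dentate granule cell markers and the summed choroid plexus and ependyma markers were unequal in the same way. The source of the inequality was not tested. Its other probe set did not exceed 8 on any array, and averaging it in turned the KA minus PBS difference to 0.11. Vipr2, which encodes VPAC2, read 5 with KA+NAP, 6 with KA, 10 with NAP and 7 with PBS, and no difference is read from these.

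Genes of the surrounding peptide system were moderate in their differences. Of 9 genes for related peptides and for the enzymes that process them, 8 were on the array and 4 passed the filter, and none of the 4 was 2-fold apart in any difference. Both KA arrays lay below both arrays without KA in 1 of the 4, close to the share of 28.7% over all genes. Cpe, which encodes carboxypeptidase E, read 8598 with KA+NAP and 8305 with KA, against 10499 with NAP and 9824 with PBS. Pcsk2, a prohormone convertase gene, read 495 with KA+NAP and 746 with KA, against 679 with NAP and 812 with PBS. Pam, whose product amidates peptides, lay between 1651 and 1986 on the 4 arrays. Vip itself, named here after its values were seen, read 637 with KA+NAP and 390 with KA, against 569 with NAP and 574 with PBS, so the KA array alone was low.

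Of 12 other class B receptor and receptor activity-modifying protein (RAMP) genes, 10 were on the array and 2 passed the filter, Ramp1 and Ramp2. Their products are partners of the calcitonin receptor family, and RAMP2 also binds VPAC1. Ramp1 read 151 with KA+NAP and 245 with KA, against 289 with NAP and 241 with PBS, and as for Vipr1 the KA+NAP array was the lowest. Ramp2 read 386 with KA+NAP and 370 with KA, against 473 with NAP and 460 with PBS.

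The 3 EB genes did not share a direction. Mapre1 encodes EB1, the widely expressed member. Its brightest probe set (1375525_at) read 1502 with KA+NAP and 1556 with KA, against 1018 with NAP and 1079 with PBS. Both KA arrays lay above both others, by a log2 difference of 0.56 in KA+NAP minus NAP and 0.52 in KA minus PBS, ratios of 1.47 and 1.44. Of the 9489 genes, 85.1% and 85.3% had lower values in these differences, so neither was at the upper edge of all genes.

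The other 2 probe sets of Mapre1 gave like sizes. 1373397_at read 1530 with KA+NAP and 1452 with KA, against 1067 with NAP and 982 with PBS, with differences of 0.52 and 0.56 in KA+NAP minus NAP and KA minus PBS. The dimmer 1370792_at read 157 with KA+NAP and 164 with KA, against 113 with NAP and 107 with PBS, with differences of 0.44 and 0.57. In all 3 probe sets both KA arrays were above both arrays without KA. Mapre1 kept its sign in both KA differences under all 8 alternative settings. The filter and pseudocount settings cannot change the sign of a single probe set. Only the settings for probe set choice and array scaling could have changed the sign. Probe sets of 1 gene share the same RNA and are no replicates of the treatment.

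Mapre3 lay on the other side. It encodes EB3, which is enriched in neurons. It read 2727 with KA+NAP and 2666 with KA, against 4209 with NAP and 4045 with PBS. The log2 difference was −0.62 in KA+NAP minus NAP and −0.60 in KA minus PBS, ratios of 0.649 and 0.660 and ranks 778 and 868 from the lowest. The summed neuronal markers had ratios of 0.772 and 0.752 in these pairs, and the summed CA3 markers 0.545 and 0.615. The part of these cells in the difference was not tested. The second probe set (1374062_x_at) read 136 with KA+NAP and 102 with KA, against 141 with NAP and 149 with PBS. It was lower by 0.51 with KA than with PBS and differed by −0.05 between KA+NAP and NAP, so the size of the difference with NAP rests on the brightest probe set.

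Mapre2, which encodes EB2, was nearly level. It read 883 with KA+NAP, 898 with KA, 864 with NAP and 1006 with PBS. The KA arrays overlapped the arrays without KA, and the highest and lowest array were 1.16-fold apart. Its log2 difference was 0.03 in KA+NAP minus NAP and −0.16 in KA minus PBS. It was measured by 1 probe set.

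**Figure D2:**
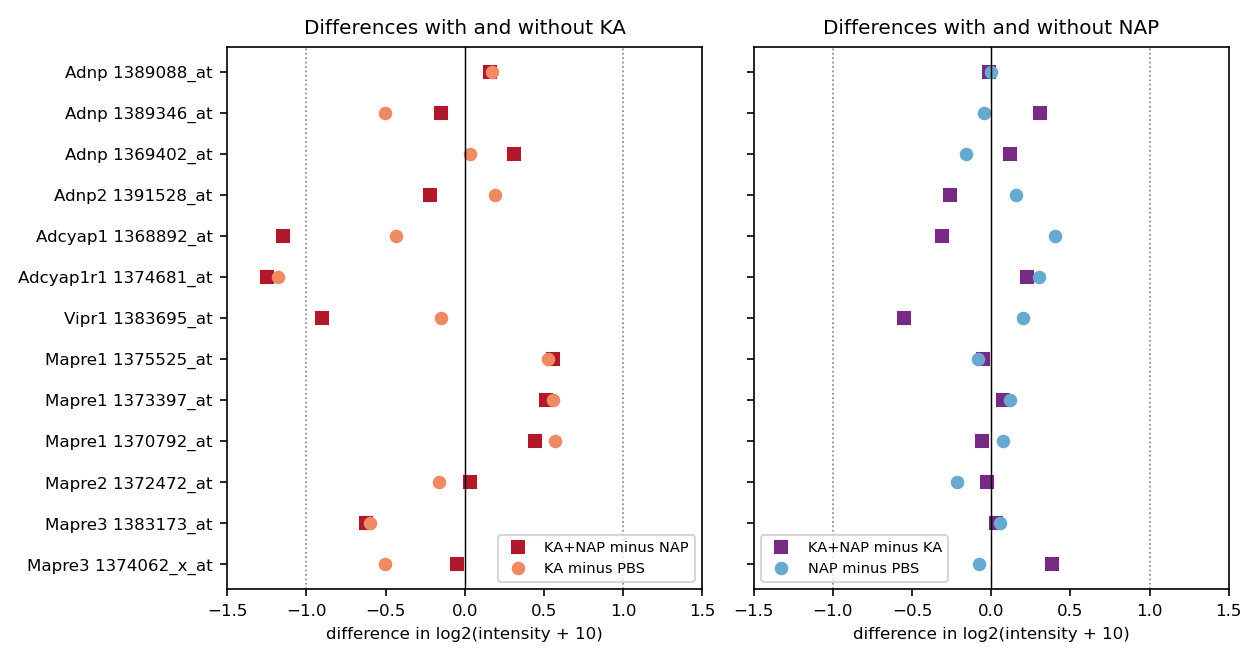
Difference in log2(intensity + 10) for each of the 13 probe sets past the filter, for KA+NAP minus NAP and KA minus PBS (left) and for the 2 NAP differences, KA+NAP minus KA (squares) and NAP minus PBS (circles) (right), with dotted lines at 2-fold. The 3 Mapre1 probe sets lie between 0.44 and 0.57 on the left, the 2 Mapre3 probe sets lie at or below −0.05, and the 3 Adnp probe sets lie on both sides of 0.

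The parent gene of the peptide had no common direction over its probe sets. The brightest probe set of Adnp (1389088_at) read 1548 with KA+NAP and 1566 with KA, against 1386 with NAP and 1386 with PBS. The arrays with and without KA did not overlap, yet the highest and lowest were only 1.13-fold apart. The log2 difference was 0.16 in KA+NAP minus NAP and 0.17 in KA minus PBS.

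The second probe set of Adnp (1389346_at) read 544 with KA+NAP and 438 with KA, against 604 with NAP and 624 with PBS. Here both KA arrays were below both others, with differences of −0.15 in KA+NAP minus NAP and −0.50 in KA minus PBS. The third (1369402_at), just past the filter, read 77 with KA+NAP and 70 with KA, against 60 with NAP and 68 with PBS. Its differences were 0.31 and 0.04. The fourth (1392456_at) did not pass and read 13 with KA+NAP and 5 with KA, against 9 with NAP and 21 with PBS. The 2 brightest probe sets thus had opposite signs in both KA differences, and no direction is given for Adnp. Which part of the transcript each one covers was not analysed here.

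Adnp2, the paralogue of Adnp, was measured by 1 probe set. It read 244 with KA+NAP and 294 with KA, against 286 with NAP and 256 with PBS. The arrays with and without KA overlapped and the 4 values were within 1.20-fold of each other. The log2 difference was −0.22 in KA+NAP minus NAP and 0.19 in KA minus PBS.

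ADNP acts in chromatin with the remodeller CHD4 and with HP1 proteins, which the Cbx genes encode. Of 8 chromatin partners, 7 were on the array and passed the filter. In 4 of the 7 both KA arrays lay above both others, where 32.3% of all genes did, and in 2 of the 7 both lay below, where 28.7% did. The median difference of the list was 0.39 in KA+NAP minus NAP and 0.21 in KA minus PBS, and none was 2-fold apart in any difference. Chd4 read 636 with KA+NAP and 557 with KA, against 468 with NAP and 471 with PBS. The remodeller ATPase gene Smarca4 read 1416 with KA+NAP and 1205 with KA, against 1082 with NAP and 1040 with PBS. Smarcc2, a subunit of the same remodeller, read 464 with KA+NAP and 363 with KA, against 482 with NAP and 523 with PBS.

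EB proteins recruit many partners to microtubule ends. Of 22 such partners and plus-end proteins, 21 were on the array and 19 passed the filter, and none of the 19 was 2-fold apart in any difference. In 6 of the 19 both KA arrays lay above both others and in 6 both lay below, shares close to the 32.3% and 28.7% of all genes. The median was 0.01 in KA+NAP minus NAP and 0.06 in KA minus PBS. Clasp2, which stabilises microtubules, read 1409 with KA+NAP and 1436 with KA, against 2007 with NAP and 2198 with PBS. Apc, a plus-end binding tumour suppressor gene, read 1438 with KA+NAP and 1314 with KA, against 1553 with NAP and 1814 with PBS. Mapt, which encodes tau, read 1285 with KA+NAP and 1188 with KA, against 1762 with NAP and 1710 with PBS. The 3 are the brightest of the list, and in each of them both KA arrays were the lowest.

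**Figure D3:**
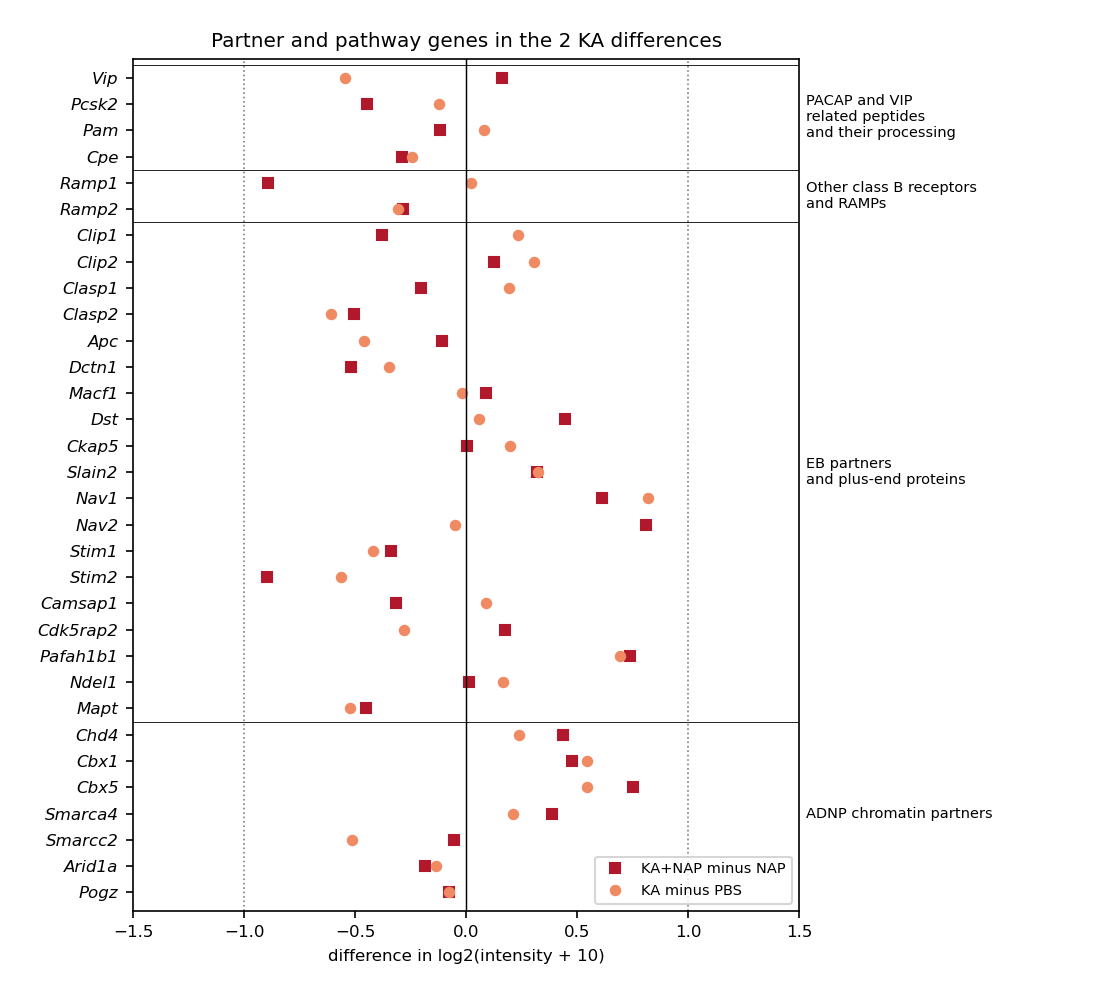
Difference in log2(intensity + 10) for the genes of the 4 partner and pathway lists that passed the filter, for KA+NAP minus NAP (squares) and KA minus PBS (circles), with dotted lines at 2-fold. No gene shown reaches 2-fold, Smarca4 and Chd4 lie right of 0 in both differences, and Clasp2 and Mapt lie left of 0 in both.

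The peptide was compared in injured tissue and in tissue without KA. In KA+NAP minus KA, none of the 8 genes was at least 2-fold higher or lower, where 1.52% and 0.601% of all genes were. In NAP minus PBS, again none was, where 1.05% of all genes passed 2-fold upwards and 0.242% downwards. The differences of the 8 genes ran from −0.55 to 0.23 in KA+NAP minus KA and from −0.22 to 0.40 in NAP minus PBS.

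Adnp, Mapre1 and Mapre3 differed little with the peptide in their brightest probe sets. The brightest probe set of Adnp differed by −0.02 in KA+NAP minus KA and by 0.00 in NAP minus PBS. Mapre1 differed by −0.05 and −0.08, and Mapre3 by 0.03 and 0.06. Mapre2 differed by −0.02 and −0.22 and Adnp2 by −0.26 and 0.15. The second probe sets of Adnp and Mapre3 read higher with KA+NAP than with KA, by 0.31 and 0.38, against −0.02 and 0.03 for the brightest ones.

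Among the 8 genes, the 2 widest peptide differences were those of Vipr1 and Adcyap1 in injured tissue and of Adcyap1 and Adcyap1r1 without KA. The brightest probe set of Adcyap1r1 was higher with the peptide in both pairs, by 0.23 in KA+NAP minus KA and 0.30 in NAP minus PBS. Adcyap1r1 kept this sign under all 7 alternative settings that gave it a value, but the filter and pseudocount settings could not have changed it. Its dim probe sets differed by 0.17 and −0.16 (1368729_a_at), −0.13 and 0.92 (1387302_at) and 0.11 and 0.13 (1368730_a_at). Adcyap1 differed by −0.31 in KA+NAP minus KA and by 0.40 in NAP minus PBS. Vipr1 differed by −0.55 in KA+NAP minus KA, rank 328 from the lowest, and by 0.20 in NAP minus PBS. The haemoglobin gene Hbb, a marker of red blood cells, read 1549 with KA+NAP and 186 with KA, and 1430 with NAP against 5 with PBS. The 2 dentate granule cell markers past the filter had medians of −0.34 in KA+NAP minus KA and 0.34 in NAP minus PBS. Prox1 differed by −0.01 and 0.35, Calb1 by −0.66 and 0.33, and Dsp, below the filter, by 0.39 and 0.21. The median in KA+NAP minus KA thus lies between 2 unlike values, whereas in NAP minus PBS Prox1 and Calb1 were near Adcyap1. CA1 markers had medians of 1.64 and −0.86, and meningeal and fibroblast markers 0.91 and 1.69, in the same differences. The part of blood, region and meningeal content in the peptide differences was not tested.

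**Figure D4:**
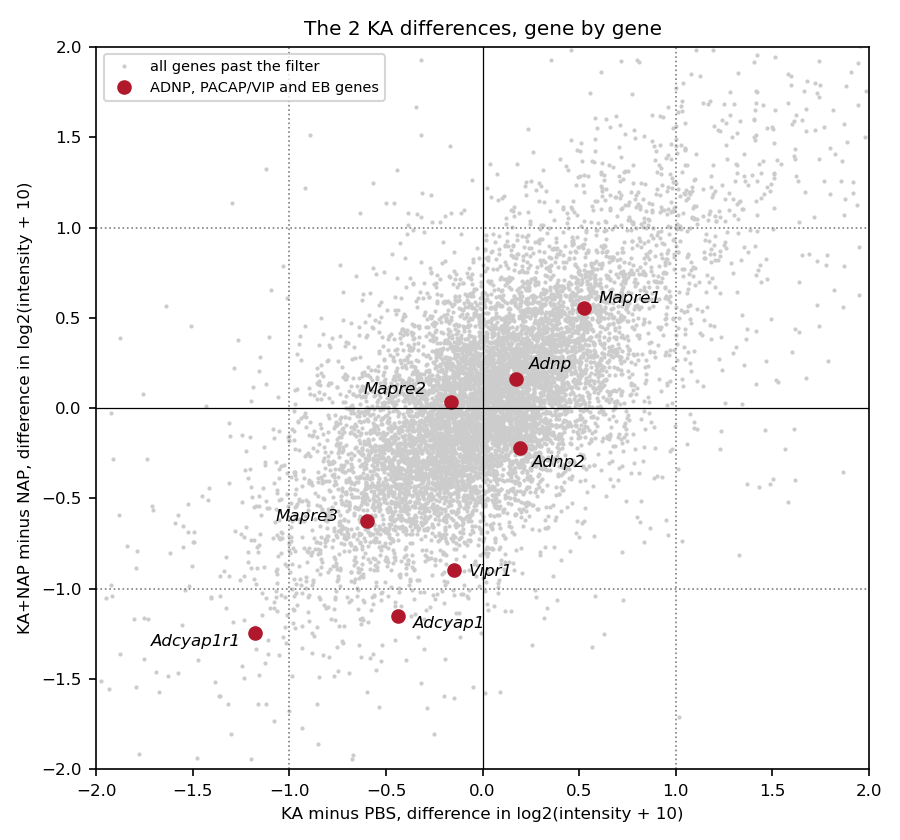
KA+NAP minus NAP against KA minus PBS, both in log2(intensity + 10), for the 9489 genes past the filter (grey) and the 8 genes described here (red), with dotted lines at 2-fold; 151 genes lie outside the axes. Adcyap1r1 is beyond 2-fold in both, Adcyap1 in KA+NAP minus NAP alone, and Mapre1 and Mapre3 lie on opposite sides of 0 in both.

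Adcyap1 and Adcyap1r1 spanned at least 1 on the log2 scale over the 4 arrays, and for them the genes of most similar pattern were sought by the Euclidean distance between values centred on each gene's mean. For Adcyap1r1 the nearest were Kif26b at 0.05, a kinesin family gene, Igfbp5 at 0.15, an insulin-like growth factor binding protein gene, and Erich3 at 0.17, where the median distance over all genes was 1.29. Kif26b read 316 with KA+NAP and 277 with KA, against 784 with NAP and 609 with PBS. For Adcyap1 the nearest were Cacna1b at 0.04, which encodes the N-type calcium channel, Lmo7 at 0.11 and LOC100912167 at 0.11, where the median was 0.94. Cacna1b read 285 with KA+NAP and 353 with KA, against 620 with NAP and 477 with PBS. With 4 arrays, such likeness is a description of these arrays.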

How the data were processed

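Per the labels' protocols, RNA of the 4 samples was extracted together and 500 ng of each was labelled through 2 cycles of amplification for an Affymetrix array. Per the submitters' processing notes, the deposited intensities were computed by the authors with MAS5. Its version and scaling were not given in the sources used here, and detection calls were not used, so signal over background was not examined. The number of arrays limits the precision.

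Of 31099 probe sets, 20832 had 1 gene symbol in the platform annotation, 436 had several and were not named, and 20764 of the singly named ones had an Entrez identifier in the RefSeq gene table (GRCr8), which supplied current symbols. A gene took its brightest probe set. Genes with a mean intensity above 62.75, the 50th percentile over probe sets other than the 57 controls, were kept. Differences of log2(intensity + 10) were formed for the toxin (KA minus PBS and KA+NAP minus NAP) and for the peptide (NAP minus PBS and KA+NAP minus KA). KA+NAP minus KA shares an array with each KA difference, and NAP minus PBS does as well. With 1 array per group, no test, p-value or standard error was computed. The calculation was tested on simulated data.

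The 9 genes, the 4 partner lists and the 12 marker lists were chosen with earlier results of these data known. Named were the 9 genes, list members at least 2-fold apart in any difference, up to 3 brightest members of each partner list, and the 3 genes nearest in pattern to a gene spanning at least 1 on the log2 scale. A few others are said to be named after their values were seen, and marker genes only give context. Pseudocounts of 1 and 50, no filter, a filter at the 75th percentile, the mean of all probe sets, median centring and quantile normalization were tried, and the next brightest probe set was added after seeing the data. Python 3.11.15, pandas 2.3.3 and numpy 2.4.6 were used.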

Additional observations from a re-analysis of the deposited data

Results flagged for a closer look

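4 genes had a difference of opposite sign in the 2 settings in which the same treatment was compared. None of these contrasts between settings was tested, since each group had 1 array. The KA difference of Adnp2 was −0.22 with NAP (KA+NAP minus NAP) and 0.19 without it (KA minus PBS). The KA difference of Mapre2 was 0.031 with NAP and −0.16 without it. The NAP difference of Adnp2 was −0.26 with KA (KA+NAP minus KA) and 0.15 without it (NAP minus PBS). That of Adcyap1 was −0.31 with KA and 0.40 without it, and that of Vipr1 was −0.55 with KA and 0.20 without it. All are on the log2(intensity + 10) scale and short of 2-fold.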

How the results depend on the processing

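No paired analysis was possible because each group had 1 array and no result comes from a test. Leaving out a replicate was not possible either. The 2-fold count of the genes described was 1 in KA minus PBS. It was 0 with the mean of all probe sets and 0 with the next brightest probe set, an alternative chosen after seeing the data that leaves 3 genes and has no second probe set past the filter for Adcyap1r1 or Adcyap1. In KA+NAP minus NAP the count was 2. It was 1 with a pseudocount of 50, 1 with the filter at the 75th percentile, which leaves 5 genes and drops Adcyap1, 1 with the mean of all probe sets, and 0 with the next brightest. In KA+NAP minus KA and in NAP minus PBS it was 0 under every setting run. Over all single-gene differences, 221 alternatives kept their side of 2-fold and 3 fell short of it. These 3 were Adcyap1r1 in both KA differences with the mean of all probe sets, at −0.63 in KA minus PBS and −0.83 in KA+NAP minus NAP, and Adcyap1 in KA+NAP minus NAP with a pseudocount of 50, at −0.97. No difference of 2-fold changed sign. The filter settings leave a gene's difference unchanged, so their outcomes, counted among the 221, were fixed in advance. Neither they nor the pseudocounts can change a sign.

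Over all genes, both directions together, 693 were 2-fold apart in KA minus PBS, 435 with a pseudocount of 50, 1202 with no filter and 296 with the filter at the 75th percentile. For KA+NAP minus NAP these counts were 766, 477, 1335 and 295, for KA+NAP minus KA 201, 105, 564 and 56, and for NAP minus PBS 123, 56, 458 and 42. The small differences of Adnp, Mapre1 and Mapre3 with the peptide, of Adnp with KA, and of Vipr1 in KA minus PBS and Mapre2 in KA+NAP minus NAP changed sign under 1 or more settings. Dim probe sets limit what can be read of Vipr1, Vipr2 and the second probe sets of Adcyap1 and Adcyap1r1.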

Other observations

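Several partner genes were singled out after their values were seen. Pafah1b1, which encodes the dynein regulator LIS1, read 1094 with KA+NAP and 1080 with KA, against 651 with NAP and 665 with PBS. Nav1, a neuron navigator gene, read 364 with KA+NAP and 362 with KA, against 235 with NAP and 201 with PBS. Stim2, which encodes a calcium sensor of the endoplasmic reticulum, read 463 with KA+NAP and 562 with KA, against 872 with NAP and 836 with PBS. Among the HP1 genes, Cbx5 read 465 with KA+NAP and 372 with KA, against 272 with NAP and 252 with PBS, and Cbx1 read 437 with KA+NAP and 457 with KA, against 311 with NAP and 310 with PBS. In each of these 5 genes the arrays with KA did not overlap the arrays without it, and all differences were short of 2-fold. Such separation was common, since both KA arrays lay above both others in 32.3% of all genes and below in 28.7%.

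Pth1r, a class B receptor gene below the filter, was also singled out after its values were seen. It read 111 with KA+NAP and 62 with KA, against 27 with NAP and 9 with PBS. It differed by 1.71 in KA+NAP minus NAP and 1.92 in KA minus PBS, at low intensities.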
